A study of Mus musculus with 4 samples.

Results

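Chromatin accessibility at 3 genes of T cell receptor signalling was followed in mouse CD8+ T cells edited at Prdm12. The genes are Cblb, Map4k1 and Nfatc3. A peak was taken for a gene when it overlapped the gene's RefSeq span or lay within 10000 bases of it, which gave 3 peaks of the 3187 in the deposited table, 1 for each gene. The genes were chosen on the sgPrdm12 against sgNTC read counts and fold changes of these same libraries. The differences at the 3 peaks are therefore given as a description, without a test.

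The receptor signal reaches the nucleus along several arms, and each has brakes. Cblb encodes a RING-type E3 ubiquitin ligase that raises the signal a T cell needs for activation and makes it depend on CD28 co-stimulation. Map4k1 encodes a haematopoietic kinase that phosphorylates the adaptor encoded by Lcp2 and so dampens the signal close to the receptor. Nfatc3 encodes an NFAT transcription factor, which moves into the nucleus once calcium entry has activated the phosphatase calcineurin.

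The cells were isolated with magnetic beads from the spleens of OTI:Cas9 mice, cultured and electroporated with complexes of Cas9 protein and a guide RNA, in both groups. The guide was sgNTC in 2 libraries (genotype label Prdm12-wt) and sgPrdm12 in 2 libraries (Prdm12-ko), and ATAC-seq, in which Tn5 transposase inserts adapters into open DNA, was run on each. The series text describes control cells without editing, whereas both guides appear in the treatment protocol. Batch 1 holds replicate 1 of both groups and batch 2 replicate 2. The age of the mice, pooling of animals and separate cultures are not stated in the labels, so any error given here may be technical.

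The libraries held 20427 to 58068 reads in the listed peaks, with sgNTC replicate 2 the deepest and sgPrdm12 replicate 2 the shallowest. No listed peak lay within 10000 bases of Prdm12, where the nearest was 32077 bases away, so the edit itself could not be checked here. Of 13 CD8 T cell marker genes, 3 had a listed peak within 10000 bases (Cd3g, Trac and Trbc2), and Cd8a, Cd8b1 and Cd3e had none, so the labelled cell type could not be checked at its defining genes. The peak near Cd3g overlapped a promoter window of Ube4a (250 bases before to 50 after a RefSeq start), and those near Trac and Trbc2 lay 3645 and 6250 bases outside the constant region spans. The summed normalised count of the 3 was 13.9 and 13.9 per 10000 reads in sgNTC and 16.3 and 17.6 in sgPrdm12, but the single peaks differed in direction. The peak near Trac, named after its values were seen, had 2.57 and 2.77 against 6.62 and 8.80, without overlap (log2 fold change 1.47 ± 0.70, SE; edgeR adjusted p = 0.93). The peak near Cd3g had 5.14 and 5.29 against 4.08 and 2.40, also without overlap, and the peak near Trbc2 had 6.17 and 5.79 against 5.60 and 6.40. Such a lack of overlap, in either direction, was seen at 34.3% of the 1125 peaks that passed the count filter. The lists of B cell, NK cell and erythroid markers had no listed peak.

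The Map4k1 peak spanned chr7:28981887-28982278 (GRCm38, 392 bases) and covered 2 starts that face away from each other. Map4k1 begins at base 28982050 on the plus strand, and Eif3k, a subunit gene of a translation initiation factor, begins 162 bases to its left on the minus strand. The peak ran from 163 bases upstream to 228 bases downstream of the Map4k1 start, so its reads cannot be assigned to one of the genes. A further Map4k1 start, 804 bases downstream of the first, lay outside it. Of the 1125 peaks that passed the count filter, 275 (24.4%) overlapped the promoter windows of at least 2 genes.

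The Cblb peak spanned chr16:52031206-52031531 (326 bases). It covered the left end of the gene span at 52031230 and ended 18 bases before the plus-strand start in the RefSeq promoter table, which lies 319 bases inside the span. The Nfatc3 peak spanned chr8:106059000-106059494 (495 bases) and lay between both listed starts of that gene, which are 772 bases apart on the plus strand. Its first base was 182 bases downstream of the first start and its last was 96 bases upstream of the second. Exon and UTR positions were not assigned, because the table of genes holds spans only. All 3 peaks overlapped their gene span, and the number stayed at 3 for any distance limit from 0 to 50000 bases.

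**Figure D1:**
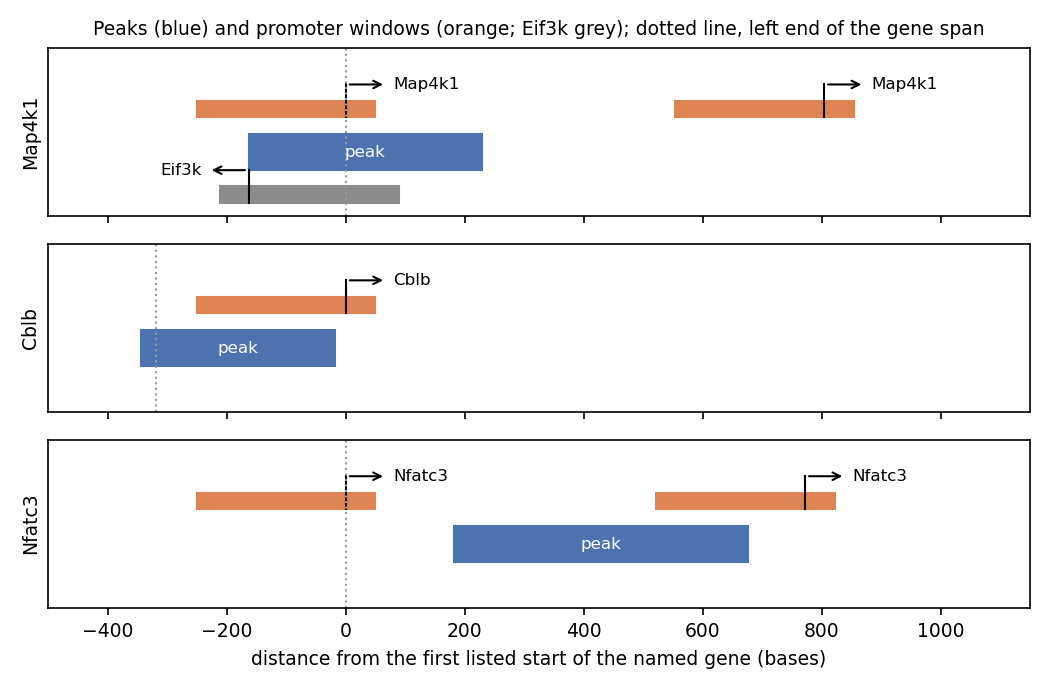
Position of each peak (blue) relative to the first listed start of Map4k1, Cblb and Nfatc3, in bases along the chromosome. Orange bars are RefSeq promoter windows of the named gene, the grey bar that of Eif3k, arrows mark starts and their direction, and the dotted line is the left end of the gene span; the Map4k1 peak covers the facing-away starts of Eif3k and Map4k1, the Cblb peak ends 18 bases before its start, and the Nfatc3 peak lies between its 2 starts.

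One promoter window of each gene is printed below, since it holds part of the DNA whose accessibility was measured. The windows cover 54.3% of the peak at Map4k1, 71.5% at Cblb and 31.3% at Nfatc3. The Eif3k window is the opposite strand of much of the Map4k1 window and is not repeated. Each holds 250 bases before and 50 bases after a RefSeq start (GRCm38.p6), 5′ to 3′ on the plus strand, with the bases inside the ATAC-seq peak in capitals. The windows are chr7:28981800-28982099 for Map4k1, chr16:52031299-52031598 for Cblb and chr8:106059340-106059639 for the second start of Nfatc3.
Map4k1: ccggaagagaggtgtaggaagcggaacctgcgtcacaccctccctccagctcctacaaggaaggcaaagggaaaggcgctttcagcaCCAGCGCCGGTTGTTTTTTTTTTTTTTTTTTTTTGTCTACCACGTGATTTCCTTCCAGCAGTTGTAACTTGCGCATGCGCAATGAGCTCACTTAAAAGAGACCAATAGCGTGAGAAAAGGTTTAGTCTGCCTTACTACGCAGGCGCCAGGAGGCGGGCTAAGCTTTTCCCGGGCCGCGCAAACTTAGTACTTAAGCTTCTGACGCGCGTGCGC
Cblb: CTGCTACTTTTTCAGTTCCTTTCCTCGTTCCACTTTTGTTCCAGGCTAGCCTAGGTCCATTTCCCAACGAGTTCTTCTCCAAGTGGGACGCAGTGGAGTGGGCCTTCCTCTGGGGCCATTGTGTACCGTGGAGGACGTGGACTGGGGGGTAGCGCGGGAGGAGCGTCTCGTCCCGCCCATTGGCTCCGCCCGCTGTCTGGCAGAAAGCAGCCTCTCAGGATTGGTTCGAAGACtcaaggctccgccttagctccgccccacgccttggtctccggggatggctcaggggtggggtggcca
Nfatc3: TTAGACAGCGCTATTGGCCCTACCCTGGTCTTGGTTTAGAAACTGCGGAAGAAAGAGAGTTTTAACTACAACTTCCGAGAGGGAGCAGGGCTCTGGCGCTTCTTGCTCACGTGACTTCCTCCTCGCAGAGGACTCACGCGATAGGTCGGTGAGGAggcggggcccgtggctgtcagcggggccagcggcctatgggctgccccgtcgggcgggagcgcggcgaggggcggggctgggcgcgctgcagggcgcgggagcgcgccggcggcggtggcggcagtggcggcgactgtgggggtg

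The peak held 213 of the 300 window bases at Map4k1, 233 at Cblb and 155 at Nfatc3, and reached beyond the window in each case. The windows differed in base composition. GC content was 52% at Map4k1, 61.3% at Cblb and 68.3% at Nfatc3, with 20, 17 and 32 CpG dinucleotides. The 2367 RefSeq windows that overlap a listed peak had a median GC content of 63.3% and a median of 25 CpG dinucleotides, against 52.7% and 7 over all 32851 windows.

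Both strands of these windows were searched for 10 short motifs, chosen after the sequences had been read. Positions count from the start as base 1, with negative positions upstream. The matches differed between the windows, and the CCAAT box was the only motif found in all 3, in each within the capitals.

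Between Eif3k and Map4k1 the core of the NRF1 motif, CGCATGCG, stood at position -92 of the Map4k1 window, inside the peak. It occurs in 10.4% of windows that overlap a listed peak and 1.87% of all windows. The E box, CACGTG, stood at -123, and the NFAT core, GGAAAA, stood reversed at position 1, both in capitals. The ETS core, CGGAAG, at -249 lay outside the peak. Cblb held the GC box of SP and KLF factors, GGGCGG, reversed at -78 and -65 inside the peak and at position 3 outside it. Its 2 CCAAT boxes, also reversed, stood at -72 and -31. At Nfatc3 the ETS core stood at -205 and, reversed, at -179, and an E box at -143, all inside the peak, while GC boxes at -44 and -26 lay outside it.

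Of the windows that overlap a listed peak, 76.6% hold the GC box, 47.1% the CCAAT box, 44.1% the ETS core, 21.3% the NFAT core and 12.2% the E box. Over all windows these shares were 35.7%, 37.4%, 16.9%, 23.4% and 7.15%. No match was found in the 3 windows for the AP-1 letters TGACTCA, which occur in 2.07% of the windows that overlap a listed peak and 5.20% of all. The same held for the CRE letters TGACGTCA (4.48% and 1.79%), the RUNX letters TGTGGT (9.76% and 16.8%) and the YY1 letters AAGATGGC (6.68% and 2.75%). No 2 matches shared a base. A match or its lack describes these letters only, and the E box, NRF1 and CRE letters read the same on both strands.

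Among the brakes, the peak shared by Map4k1 and Eif3k held 18 (replicate 1) and 30 (replicate 2) reads with sgNTC. With sgPrdm12 it held 8 and 3 reads. After TMM scaling to 10000 reads in the tested peaks, these were normalised read counts of 9.26 and 7.56 in sgNTC and 4.08 and 2.40 in sgPrdm12. Both sgPrdm12 libraries were below both sgNTC libraries. The mean was 8.41 ± 1.20 in sgNTC and 3.24 ± 1.19 in sgPrdm12 (SD, n = 2), a ratio of means of 0.385. In these bulk libraries, fewer cells with the site open and less open DNA per cell cannot be told apart. The fitted log2 fold change was -1.25 ± 0.45 (SE, edgeR). The authors' deposited table gives a log2 difference of -1.50, standard error 0.96.

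Read numbers limit how well this peak is known. The exact 95% Poisson interval was 1.76 to 8.03 normalised reads in sgPrdm12 replicate 1 and 0.495 to 7.01 in sgPrdm12 replicate 2. It was 5.49 to 14.6 and 5.10 to 10.8 in the sgNTC libraries, so the intervals of the groups overlapped. These intervals cover counting error only, and PCR copies are not independent molecules. Within batches the scaled ratio of sgPrdm12 to sgNTC was 0.440 (95% conditional binomial interval 0.166 to 1.06) in batch 1 and 0.318 (0.0620 to 1.02) in batch 2. With scaling by the total count the batch 2 ratio was 0.284 (0.0555 to 0.914), the only one of the 18 batch intervals, over 3 peaks and 3 scalings, that did not include 1.

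At Cblb, the ubiquitin ligase gene, the peak held 15 (replicate 1) and 28 (replicate 2) reads with sgNTC, against 10 and 6 with sgPrdm12. The normalised read counts were 7.72 and 7.05 against 5.09 and 4.80, again with both sgPrdm12 libraries below both sgNTC libraries. The means were 7.38 ± 0.47 and 4.95 ± 0.21 (SD, n = 2), a ratio of 0.670. The replicates of each group lay closer together than their counting error, since the Poisson interval of the lowest library alone ran from 1.76 to 10.4. The fitted log2 fold change was -0.55 ± 0.40 (SE, edgeR), and the authors' deposited table gives -0.73, standard error 0.89. The scaled ratio was 0.660 (0.265 to 1.57) in batch 1 and 0.680 (0.230 to 1.67) in batch 2. Both batches gave nearly the same ratio, and both counting intervals included 1.

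At Nfatc3, the transcription factor gene, the order of the groups was the opposite. The peak held 6 (replicate 1) and 22 (replicate 2) reads with sgNTC, against 16 and 8 with sgPrdm12. The normalised read counts were 3.09 and 5.54 in sgNTC and 8.15 and 6.40 in sgPrdm12, so both sgPrdm12 libraries lay above both sgNTC libraries, by a narrow margin in batch 2. The means were 4.31 ± 1.74 and 7.27 ± 1.24 (SD, n = 2), a ratio of 1.69. The fitted log2 fold change was 0.67 ± 0.47 (SE, edgeR), and the authors' deposited table gives 0.58, standard error 0.93. The batches differed in size: the scaled ratio was 2.64 (0.982 to 8.24) in batch 1 and 1.15 (0.444 to 2.69) in batch 2. With total count scaling the batch 2 ratio was 1.03.

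**Figure D2:**
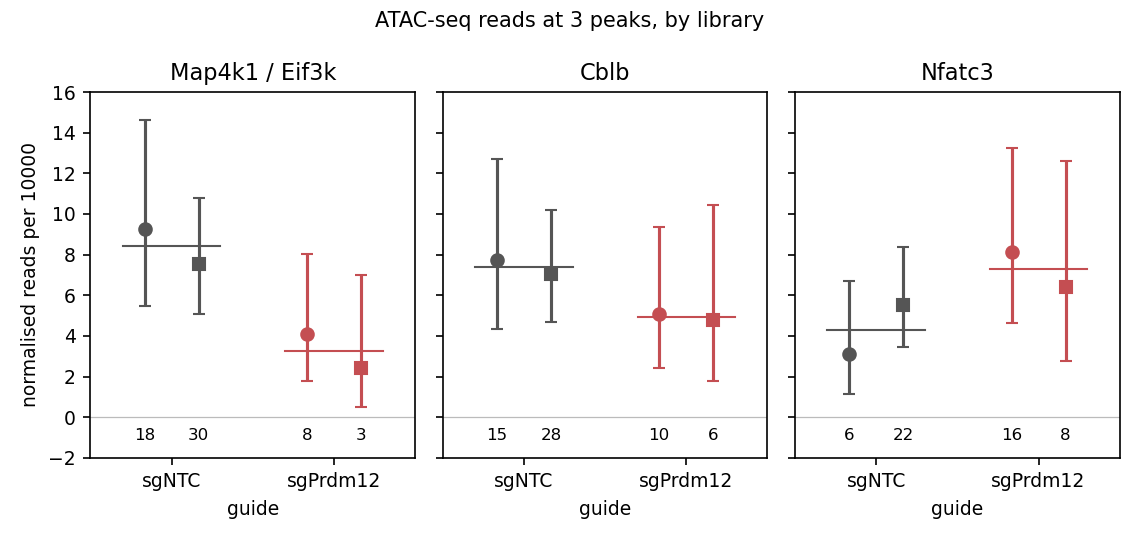
Normalised reads per 10000 at each peak, by guide, with circles for replicate 1 and squares for replicate 2. Bars are exact 95% Poisson intervals, horizontal lines group means, and the numbers under the points raw reads; both sgPrdm12 points lie below both sgNTC points at Map4k1 / Eif3k and Cblb and above them at Nfatc3, while the intervals overlap at all 3 peaks.

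**Figure D3:**
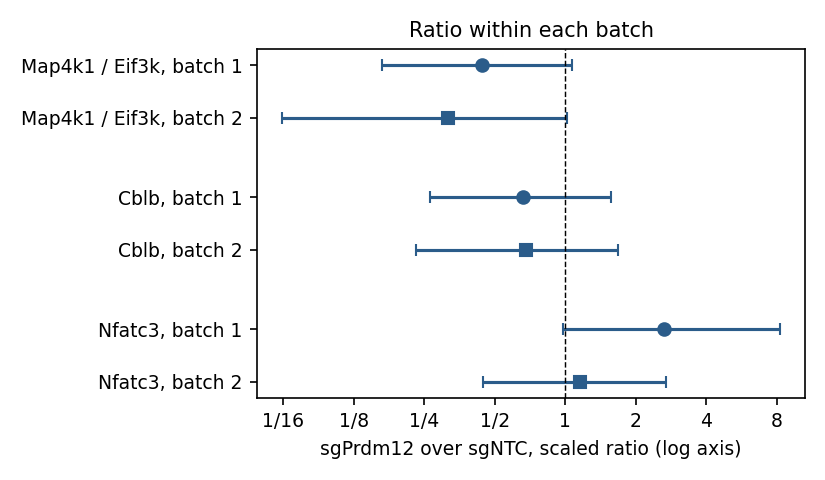
Scaled ratio of sgPrdm12 to sgNTC within each batch on a log axis, with 95% conditional binomial intervals that cover counting error. The ratios are 0.440 and 0.318 at Map4k1 / Eif3k, 0.660 and 0.680 at Cblb, and 2.64 and 1.15 at Nfatc3, and each interval includes 1 (dashed line).

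Normalised counts that do not overlap between groups were common in this table. The Cblb peak and the peak shared by Map4k1 and Eif3k were lower without overlap, as were 18.0% of the 1125 tested peaks. The Nfatc3 peak was higher without overlap, as were 16.4%. Taking both directions, 34.3% of tested peaks did not overlap. The same direction in both batches was seen at 49.5% of tested peaks, 24.3% lower and 25.2% higher. The quasi-likelihood test of edgeR called 0% of the tested peaks at an adjusted p of 0.05, so no peak of the 3 genes was called. At an unadjusted p of 0.05 it returned 57 of 1125 (5.07%), and DESeq2's Wald test returned 0 adjusted and 28 unadjusted of 3186. Ranked by fitted log2 fold change, 8 of 1125 tested peaks were at or below Map4k1, 119 at or below Cblb and 79 at or above Nfatc3. Since these values chose the genes, nothing further is read from them.

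The reads of the peaks can also be set against each other inside 1 library, where scaling plays no part. Since Map4k1 and Cblb were chosen as lower and Nfatc3 as higher, these ratios restate that choice and are given only as values. Map4k1 over Nfatc3 was 3.0 (replicate 1) and 1.36 (replicate 2) with sgNTC, against 0.50 and 0.375 with sgPrdm12. Cblb over Nfatc3 was 2.5 and 1.27 against 0.625 and 0.75. Map4k1 over Cblb was 1.2 and 1.07 against 0.80 and 0.50.

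Per length, the order of the peaks differed between the groups, which also restates how the genes were chosen. In sgNTC the normalised count per 1000 bases of peak was 22.7 ± 1.44 at Cblb, 21.4 ± 3.07 at Map4k1 and 8.71 ± 3.51 at Nfatc3 (SD, n = 2). Cblb and Map4k1 did not differ beyond their spread, and Nfatc3 was the lowest in both libraries. In sgPrdm12 it was 15.2 ± 0.64 at Cblb, 14.7 ± 2.50 at Nfatc3 and 8.26 ± 3.02 at Map4k1, with Cblb and Nfatc3 within their spread. Over the 4 libraries the levels per 1000 bases were 18.9, 14.9 and 11.7 for Cblb, Map4k1 and Nfatc3. The tested peaks had a median of 13.8, and the 3 peaks ranked 129, 421 and 835 among 1125. Undivided by length, their mean normalised counts of 6.17, 5.82 and 5.79 lay below the tested median of 7.07 and ranked 734, 818 and 828. At 326, 392 and 495 bases all were narrower than the median tested peak of 537 bases. Against the median of 383 bases over all 3187 listed peaks, only Cblb was narrower.

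The next peaks beyond the 10000-base limit lay far off. From Cblb it was 339179 bases to a peak nearest to Alcam, with 7 and 1 reads for sgNTC against 1 and 0 for sgPrdm12. From Map4k1 it was 140565 bases to a peak in Rasgrp4, a Ras activator gene, with 7 and 0 reads against 0 and 1. From Nfatc3 it was 203744 bases to a peak in Cenpt, a centromere protein gene, with 7 and 20 reads against 9 and 4. All of these failed the count filter.

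Other peaks shared these patterns over the 4 libraries. Likeness was the Euclidean distance between log2 normalised counts (with 0.5 added), each centred on its own mean, over 959 other tested peaks within 1000 bases of a protein-coding gene's end. Nearest to Cblb was Trappc4, a vesicle tethering subunit (distance 0.14; 23 and 42 reads against 17 and 9), then Sp1 at 0.16 and Zfp143, a zinc finger factor, at 0.16. Nearest to the Map4k1 and Eif3k peak were Isca2, a mitochondrial iron-sulphur assembly factor, at 0.31, Ypel5 at 0.33 and Prss57 at 0.35. Nearest to Nfatc3 were Ing4, a histone mark reader, at 0.10, Tmed7, a membrane traffic gene, at 0.14 and Pigf, a GPI anchor synthesis gene, at 0.15. The distance from Cblb to Map4k1 was 0.86, from Cblb to Nfatc3 1.42 and from Map4k1 to Nfatc3 2.15. These 3 distances also restate how the genes were chosen.

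The rest of the pathway was followed in lists of 124 genes. Of these, 33 (26.6%) had a listed peak under the same distance rule, against 18.6% of 21627 protein-coding genes. The signal brake list had peaks at 12 of 49 genes, the calcium and NFAT list at 11 of 33, the adaptor and effector list at 9 of 30 and the list of receptor chains and proximal kinases at 1 of 12. Brakes without a listed peak included Dgka and Dgkz, which remove diacylglycerol, the inhibitory kinase Csk, the phosphatase Ptpn22 and the receptors Pdcd1 and Ctla4. The targets nearest to the present genes were also without one, namely Lcp2 and the phospholipase Plcg1. Of the NFAT family, Nfatc3 and Nfat5 had a peak, and Nfatc1, Nfatc2 and Nfatc4 did not. A gene without a listed peak is not shown to be closed.

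Of the 18 list peaks that passed the count filter, 15 belonged to genes other than Cblb, Map4k1 and Nfatc3. Of those 15, 0 were higher and 0 lower at an adjusted p of 0.05, and 0 had an unadjusted p under 0.05 (edgeR). DESeq2 gave 0 of all 33 list peaks, those of the 3 genes included, with or without adjustment. The log2 fold change was above 0 at 7 and below 0 at 8, with a median of -0.09, against 0.02 over all tested peaks. With total count scaling Map2k2 and Ptpn2, both near 0, moved below 0. Groups did not overlap at 3 of the 15, where 34.3% of all tested peaks did not.

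Among other brakes, Ptpn2, a phosphatase of the receptor kinases, had a log2 fold change of 0.05 ± 0.29, from 25 and 55 reads with sgNTC against 31 and 14 with sgPrdm12. The peak near Ptpn6, the phosphatase known as SHP-1, had 0.68 ± 0.53 but overlapped promoter windows of Emg1 and Phb2. The peak near Sit1, an inhibitory adaptor, overlapped a promoter window of Ccdc107 and had -0.28 ± 0.40. The edgeR adjusted p was between 0.97 and 0.997 in these and all other tested list peaks outside the 3 genes. Among peaks below the filter, Socs1, an inhibitor of cytokine signalling, held 16 and 20 reads against 10 and 5. Rasa1, which switches Ras off, held 6 and 23 against 6 and 6. The peak near Dusp6, a MAP kinase phosphatase, lay 1174 bases outside its span and held 8 and 18 against 2 and 6.

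In the calcium and NFAT list, Nfat5, a relative of the calcium-regulated NFAT proteins, had a log2 fold change of 0.12 ± 0.41, from 13 and 30 reads with sgNTC against 11 and 14 with sgPrdm12. Ppp3r1, the regulatory subunit of calcineurin, had -0.31 ± 0.60, and Stim1, the calcium sensor of the endoplasmic reticulum, had -0.25 ± 0.44. The kinases that return NFAT to the cytoplasm had 0.29 ± 0.29 (Gsk3b), -0.09 ± 0.41 (Gsk3a) and -0.40 ± 0.77 (Csnk1a1). The Gsk3b peak also overlapped a promoter window of BC031361. The peak near Homer3 overlapped promoter windows of Cope and Ddx49 and had -0.30 ± 0.58, and that near Orai3, a calcium channel subunit, overlapped a promoter window of Setd1a and had 0.14 ± 0.44. Below the filter, Calm3, a calmodulin gene, held 10 and 15 reads against 8 and 7, and Rcan3, a calcineurin regulator, 4 and 17 against 7 and 4. Each of these 8 fold changes was smaller than its standard error.

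In the adaptor and receptor lists, Map2k2, a kinase of the MAP kinase arm, had 0.02 ± 0.54. The peak near Akt1 overlapped promoter windows of Gm30101 and Siva1 and had -0.20 ± 0.47. The peak near Cd3g and Ube4a had -0.62 ± 0.73. Below the filter, the adaptor Nck1 held 9 and 32 against 6 and 6 reads. The peak near the adaptor Grb2, 71 bases outside its span and 8740 bases from its nearest start, held 6 and 14 against 13 and 7. Nras held 5 and 13 against 6 and 7, and Bcl10, which links the receptor to NF-kB, 7 and 7 against 8 and 7. Raw counts come from libraries of unequal depth and give no direction by themselves. Of the 15 tested list peaks outside the 3 genes, 4 had the same direction in both batches, against 49.5% of all tested peaks.

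**Figure D4:**
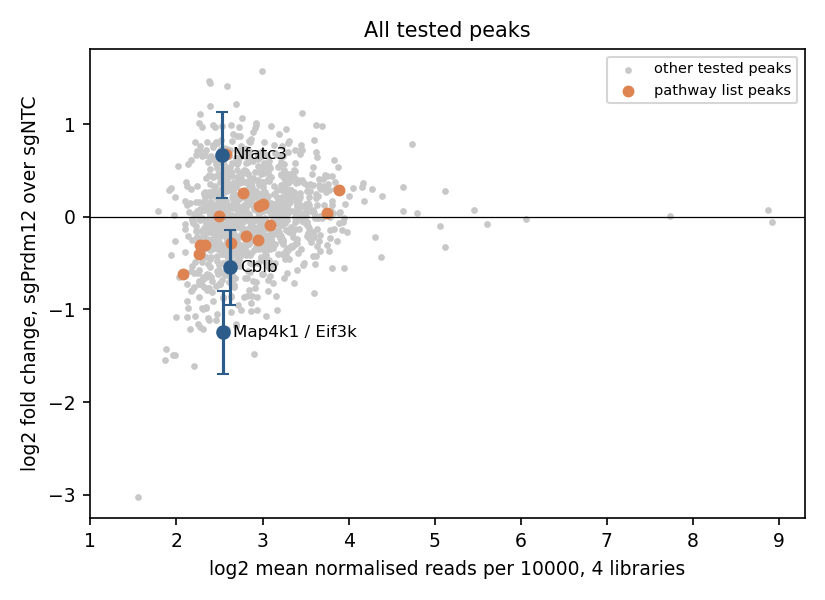
Fitted log2 fold change (sgPrdm12 over sgNTC) against log2 mean normalised reads per 10000 over the 4 libraries for all 1125 tested peaks (grey), with the 15 other pathway list peaks in orange. The 3 peaks of interest (blue, with SE bars) stand at -1.25, -0.55 and 0.67, and the low-count peaks at the left spread most.

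Markers of other cell types were measured beside these values. The myeloid list had 1 peak for its 10 genes, near Cebpb, with 2.06 and 1.26 normalised reads in sgNTC and 2.04 and 6.40 in sgPrdm12. The CD4 list had 1 peak for its 4 genes, at Zbtb7b, with 1.03 and 2.77 against 1.53 and 7.20. Both were highest in sgPrdm12 replicate 2, the shallowest library. Their part in the values of the 3 genes was not tested.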

How the data were processed

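ATAC-seq peak counts of 4 libraries were analysed. The authors deposited whole-number read counts over 1 set of peaks for all libraries. Per the submitters' processing notes the build is GRCm38 and the tools include MACS2, DiffBind, ChIPseeker, HOMER, Bowtie2, Picard and cutadapt, without order. The steps of peak calling and counting are not given in the sources used. The authors also deposited log2 means, log2 differences and their standard errors.

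Peaks were matched to RefSeq GRCm38.p6 gene spans and promoter windows. All peaks were fitted with edgeR 4.0.16 (R 4.3.3) by the quasi-likelihood test with TMM scaling, a model of group alone and the Benjamini-Hochberg threshold at 0.05. filterByExpr with a minimum count of 10 kept 1125 of 3187 peaks, and all counts were scaled per 10000 reads in these. Totals over all listed peaks were 28749 and 58068 reads in sgNTC and 29043 and 20427 in sgPrdm12; full depth is unknown.

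The members and lists were chosen with earlier results of these data known. Named were all peaks of the 3 genes and genes sharing them, the nearest peak beyond 10000 bases, list genes with a tested peak or the most reads below the filter, and the 3 closest patterns for each gene. Some list members are left unnamed. Replicate numbers mark a shared batch in the labels, so they pair the libraries; the replicate 1 minus 2 log2 differences of the groups correlated at 0.059 over 1125 peaks. Alternatives were DESeq2 1.42.0, its size factors, total count scaling, no count filter, the replicate block, other distance limits and leaving out each library.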

Additional observations from a re-analysis of the deposited data

How the results depend on the processing

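The count of called peaks was 0 in all 1125 tested peaks and in the pathway lists under each of the 9 other settings tried, which tested 1125 to 3186 peaks. At an unadjusted p of 0.05 they returned 28 to 109 peaks, with 57 in the fit reported. With the replicate block, a paired fit, edgeR called 0 and returned 47, and the log2 fold change was -1.34 at Map4k1, -0.57 at Cblb and 0.74 at Nfatc3. No setting turned the direction at these 3 peaks. The value at Cblb moved beyond the small difference between its batches, to -0.62 with total count scaling and -0.60 without the count filter. Leaving out each library in turn gave -0.67 to -0.49 at Cblb, -1.73 to -1.04 at Map4k1 and 0.42 to 1.20 at Nfatc3. Where a library is left out, 1 group has a single library, which is assumed to vary like the others.

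Among the other list peaks, signs turned where values were small against their errors. Map2k2 had -0.057 with total count scaling, -0.034 without the filter, -0.039 with the replicate block and -0.034 by DESeq2. Ptpn2 had -0.023 with total count scaling and -0.0053 without the filter, and Orai3 had -0.059 with the replicate block. Leaving out each library gave these ranges: Map2k2 -0.57 to 0.51, Akt1 -2.22 to 0.35, Ptpn2 -0.25 to 0.18, Sit1 -0.56 to 0.14, Nfat5 -0.42 to 0.64, Ppp3r1 -0.88 to 0.77, Gsk3a -0.85 to 0.23, Csnk1a1 -3.27 to 0.73, Homer3 -0.65 to 0.057, Stim1 -0.68 to 0.60 and Orai3 -1.29 to 0.62. The cause was not tested. Counts of 3 to 30 reads per library limit the precision at the 3 peaks.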
